A study of Mus musculus with 6 samples.

Results

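The 10 genes described here encode the enzymes that make fatty acids in the cytosol and then lengthen and desaturate them: Acly, Acaca, Fasn, Scd1, Scd2, Fads1, Fads2, Elovl1, Elovl5 and Elovl6. They were picked by gene symbol from a list of names, and all 10 of 10 were found among the 23420 rows of the expression table. All of them exceeded a mean of 10 normalised counts and entered the test with 11947 genes in all.

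ATP citrate lyase splits citrate exported from mitochondria into acetyl-CoA, acetyl-CoA carboxylase turns part of it into malonyl-CoA, and fatty acid synthase joins these units into palmitate. The ELOVL elongases add carbons in the endoplasmic reticulum, the SCD enzymes introduce the double bond that gives monounsaturated fatty acids, and the FADS enzymes act on polyunsaturated fatty acids. Most of these genes are known targets of the SREBP transcription factors, and activated T cells raise fatty acid synthesis as they grow. Acetyl-CoA carboxylase activity is known to favour Th17 over regulatory T cell differentiation.

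RNA came from mouse T cells cultured as pathogenic Th17 cells, the IL-17-producing helper cells that form in the presence of IL-23. Naive CD4 T cells of C57BL/6 mice were activated for 2 days on anti-CD3 and anti-CD28 fixed to the plate, in medium holding IL-6, IL-1b plus IL-23. The control genotype was Stat3CSTOPfl/fl CD4-Cre, called Stat3C below, and the other was Stim1fl/fl Stat3CSTOPfl/fl CD4-Cre, called Stim1KO Stat3C. Each had 3 libraries. In both, Cre driven by the Cd4 promoter switches on Stat3C, a constantly active STAT3, so all comparisons are between cells with active STAT3, and CD4-Cre is known to act in CD8 T cells too. In the second genotype Cre also removes a floxed part of Stim1, the calcium sensor of the endoplasmic reticulum that opens store-operated calcium channels. Not given in the sources used here were the age of the mice and whether each library came from its own mouse. The p-values therefore rest on the spread between libraries alone, which may be technical in part.

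Values are normalised counts: reads per gene scaled by the authors with 1 size factor for each library. Recovered depths ran from 16009755 to 51347367 reads per library. Stim1 fell from 1966 ± 33.9 to 764 ± 67.2 (SD, n = 3 each). Stat3C replicate 2 stood apart, with a residual SD over all tested genes of 0.514 on the log2 scale against 0.244 to 0.360 in the other 5 libraries. Xist stood at 8362 and 11549 in replicate 3 of the groups and at 1.37 to 3.53 elsewhere, so replicate 3 of each group differed in sex from replicates 1 and 2. The T cell markers Cd3e (2932 to 3799) and Cd4 (7834 to 11543) were present in every library. Summed levels were 50708 to 58265 in Stat3C and 67177 to 72190 in Stim1KO Stat3C for 7 CD4 T cell markers, of which 5 rose. They were 14878 to 19662 and 4722 to 6112 for 6 Th17 markers, of which 3 fell. Over all tested genes, 8.62% were called higher and 4.96% lower. The part of these markers, and of those that follow, in the results was not tested. The 6 B cell markers summed to 134 to 381 in Stat3C and to 32.2 to 63.0 in Stim1KO Stat3C, and the 2 CD8 markers to 277 to 453 and to 111 to 159. The 7 macrophage and dendritic cell markers summed to 126 to 245 and 329 to 433, most of it Cd68 (115 to 139 and 317 to 396); Cd14 (40.3), Adgre1 (26.7) and Lyz2 (19.6) were highest in Stat3C replicate 2. The 4 NK cell markers summed to 8.72 to 18.1 and 4.30 to 13.7. Of 6 adipocyte and hepatocyte markers, Adipoq, Lep and Cidec were listed at 0 throughout, and the 6 summed to 4.84 at most. In such bulk samples, fewer cells of a type and less RNA per cell cannot be told apart.

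Per kilobase of exon, the genes spanned more than an order of magnitude in the control cells. Acly was highest, at 2818 ± 123 normalised counts per kilobase in Stat3C, followed by Scd2 at 2221 ± 611 and Fasn at 1997 ± 150. The libraries of these 3 genes overlapped from neighbour to neighbour. Elovl1 followed at 1065 ± 47.9, then Elovl5 at 492 ± 45.6 and Elovl6 at 348 ± 12.4. Acaca (242 ± 18.1), Fads2 (214 ± 19.9) and Fads1 (206.5 ± 7.48) came next and overlapped with their neighbours. Scd1 was lowest at 116 ± 56.8 per kilobase, so Scd2 was the main stearoyl-CoA desaturase transcript in these T cells. The place of Acaca depended on the length used: over its longest coding transcript, 9513 bases in place of 17074 for all exons, it stood at 435 ± 32.5 per kilobase, above Elovl6 at 377 ± 13.4. In Stim1KO Stat3C, Acly led again (2357 ± 130.5 per kilobase of exon) and Scd1 was again last (38.7 ± 17.9), while Fads2 had moved below Fads1 (81.7 ± 20.3 against 172 ± 23.4). Over the longest coding transcripts, Fads2 was below Fads1 in Stat3C already (224 ± 20.8 against 287 ± 10.4).

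**Figure D1:**
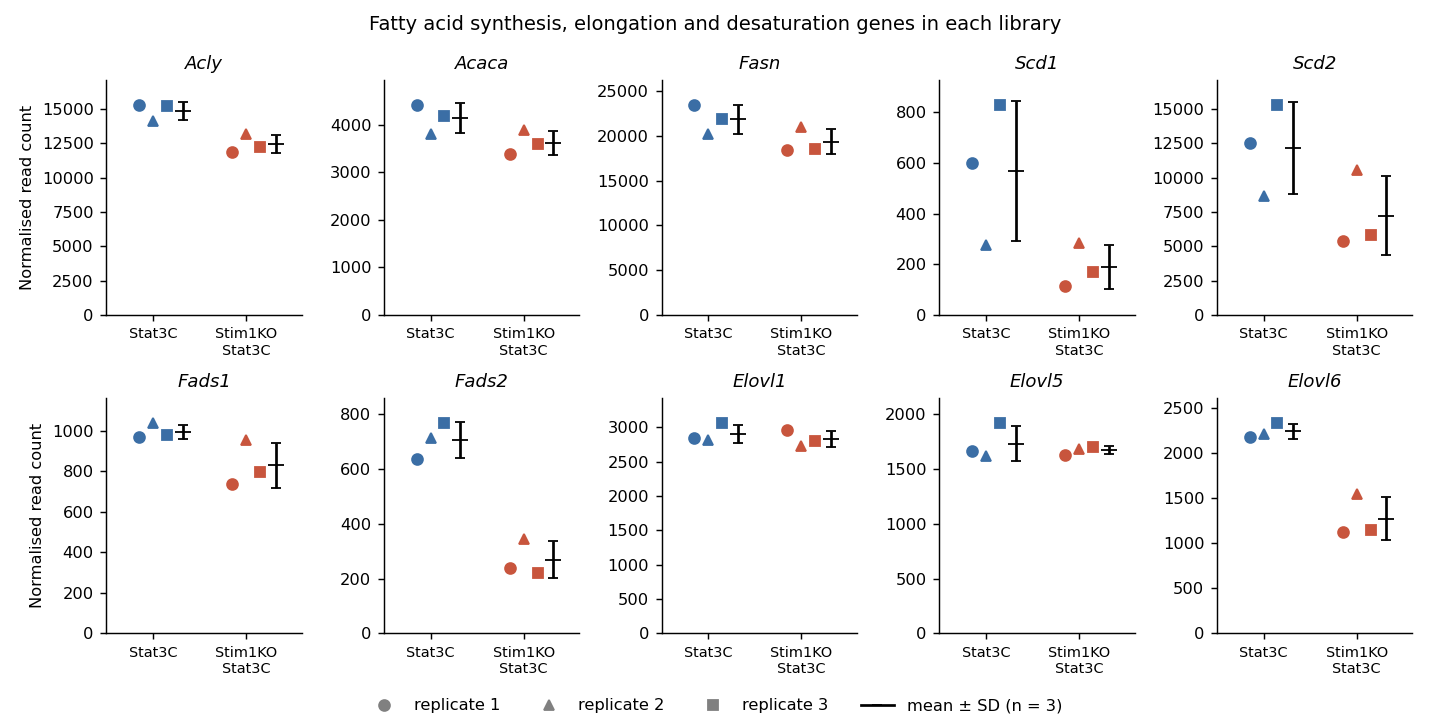
Normalised read counts (linear axes from 0) of the 10 genes in each library, with circles, triangles and squares for replicates 1, 2 and 3 and bars for the mean ± SD of 3 libraries. Fads2, Elovl6, Fads1 and Acly show no overlap between Stat3C (blue) and Stim1KO Stat3C (red), whereas in Scd1 and Scd2 the triangle of each group lies toward the other group.

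Of the 10 genes, Fads2, Elovl6 and Acly fell in Stim1KO Stat3C, none rose, and 7 did not pass the limma test at an adjusted p of 0.05. Over all 11947 genes tested, 4.96% were called lower and 8.62% higher. All 10 genes had a log2 fold change below 0, against 50.2% of all tested genes, and their median was -0.26 against -0.0011. The groups did not overlap and Stim1KO Stat3C was lower in 4 of the 10 (Fads2, Elovl6, Fads1 and Acly), against 16.4% of all tested genes. The count of 3 depended on single libraries: it was 7 without Stat3C replicate 2, 5 without Stim1KO Stat3C replicate 2, and 2 when any other single library was left out. The share of all tested genes called lower moved too: it was 9.98% without Stat3C replicate 2, 1.79% without Stim1KO Stat3C replicate 2, and 1.17% to 3% without any other library. With replicates 1 and 2 of each group only, the count was 0. The number of the 10 genes below 0 was 9 without Stat3C replicate 3 and 8 with replicates 1 and 2 only.

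**Figure D2:**
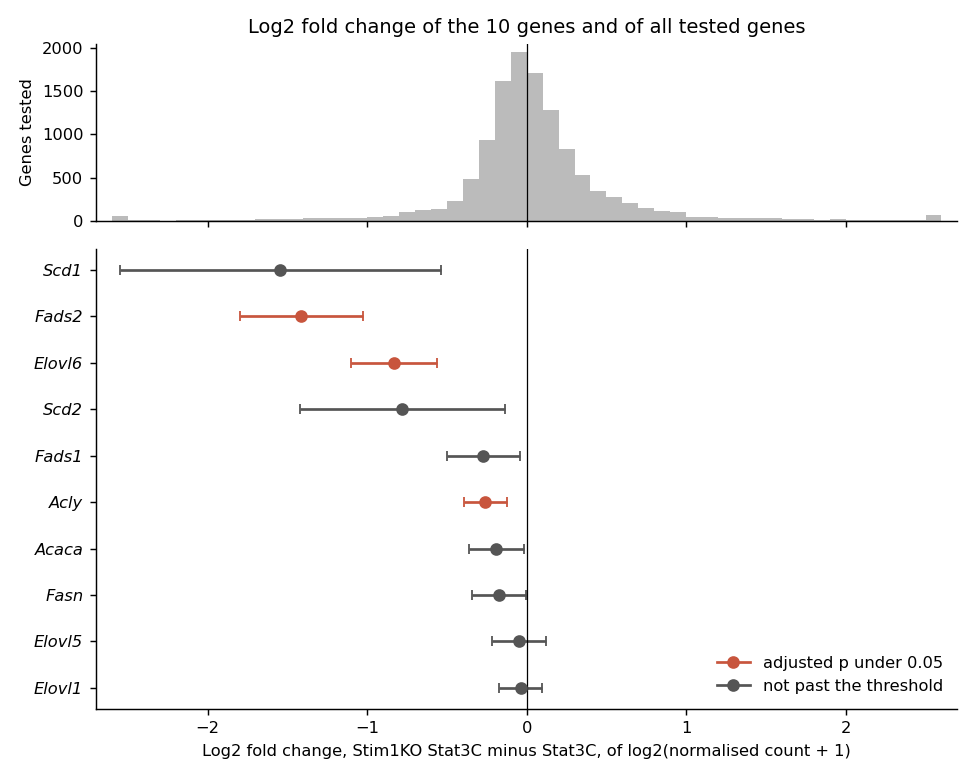
Top, number of tested genes by log2 fold change, Stim1KO Stat3C minus Stat3C, in bins of 0.1, with values beyond the axis in the outermost bars. Bottom, the 10 genes with points for the estimate and bars for the 95% confidence interval; red marks Fads2 (-1.41), Elovl6 (-0.83) and Acly (-0.26), which passed the test.

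Fads2, the delta-6 desaturase that performs the entry step from dietary linoleic and alpha-linolenic acid to longer polyunsaturated fatty acids, fell most among the genes that passed. The gene lies on chromosome 19, 10062765 to 10101746, minus strand (GRCm38). Its normalised counts were 636, 715 and 766 in Stat3C replicates 1, 2 and 3, against 240, 346 and 222 in Stim1KO Stat3C replicates 1, 2 and 3. Every Stim1KO Stat3C library lay below every Stat3C library. The mean was 2.62-fold lower, from 706 ± 65.5 to 269 ± 67.0 (log2 fold change -1.41, SE 0.17, limma adjusted p = 0.0024). Of all tested genes, 1.55% had a lower log2 fold change.

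Fads1, the delta-5 desaturase that acts later in the same route to arachidonic acid, lies on chromosome 19 as well, 10182888 to 10196877, plus strand. It stood at 969, 1035 and 977 in Stat3C and at 737, 954 and 793 in Stim1KO Stat3C. The groups did not overlap, but Stim1KO Stat3C replicate 2 came close to the lowest control library. The difference missed the threshold (994 ± 36.0 and 828 ± 112, log2 fold change -0.27, SE 0.10, limma adjusted p = 0.113).

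Scd1 had the most negative estimate of the 10 genes and the widest spread. This desaturase, which makes oleic and palmitoleic acid and is the main form in liver and fat, lies on chromosome 19, 44394455 to 44407879, minus strand. Its counts were 600, 277 and 829 in Stat3C against 114, 286 and 169 in Stim1KO Stat3C. Stat3C replicate 2 and Stim1KO Stat3C replicate 2 were nearly equal, so the groups overlapped. The means were 569 ± 278 and 189 ± 87.8, with a log2 fold change of -1.54 (SE 0.44, limma adjusted p = 0.053, 95% interval -2.55 to -0.54). Without Stat3C replicate 2 the estimate was -1.99 (adjusted p = 0.0017), and Scd1 passed in 6 of 23 alternative settings. In Stat3C, the summed B cell markers (243, 134 and 381) and CD8 markers (421, 277 and 453) had the same order over replicates 1, 2 and 3 as Scd1, whereas in Stim1KO Stat3C (63.0, 32.2 and 54.7, and 159, 111 and 143) the order was the reverse of that of Scd1. The summed 16 cell cycle genes had the order of Scd1 in both groups. They stood at 149800, 147010 and 151620 in Stat3C and at 128740, 144190 and 143360 in Stim1KO Stat3C, varying far less than Scd1. In Stat3C, the macrophage and dendritic cell (163, 245 and 126) and NK cell sums (15.2, 18.1 and 8.7) had the reverse order of Scd1. The CD4 (58265, 50708 and 56737) and Th17 sums (14878, 18159 and 19662) had neither order. In Stim1KO Stat3C, the CD4 (72190, 67177 and 69428) and NK cell sums (13.7, 4.3 and 12.9) had the reverse order. The Th17 and the macrophage and dendritic cell sums had neither order there. The part of all these sums in the result was not tested.

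Scd2, the form typical of brain and of lymphoid cells, is its neighbour on chromosome 19, 44293674 to 44306864, plus strand, and is read from a much larger count. It stood at 12479, 8635 and 15287 in Stat3C and at 5345, 10539 and 5785 in Stim1KO Stat3C. Stim1KO Stat3C replicate 2 lay above Stat3C replicate 2, and the other 4 libraries were well apart. The means were 12133 ± 3339 and 7223 ± 2880 (log2 fold change -0.78, SE 0.28, limma adjusted p = 0.104, 95% interval -1.42 to -0.14). It passed without Stat3C replicate 2 (-1.005, adjusted p = 0.0122) and without Stim1KO Stat3C replicate 2 (-1.09, adjusted p = 0.0373). Of the 50-base windows of the longest Scd1 transcript, 4.66% also occur in another gene's transcript, mostly Scd3 and Scd2, and for Scd2 the share is 4.01%, mostly Scd1 and Scd3, so a small part of the reads could be split between these copies.

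Elovl6, which extends palmitate to stearate and so feeds the SCD step, fell clearly. It lies on chromosome 3, 129532355 to 129638495, plus strand. Its counts were 2178, 2214 and 2330 in Stat3C against 1127, 1544 and 1149 in Stim1KO Stat3C. The control libraries were tight, and the highest Stim1KO Stat3C library, again replicate 2, stayed well under them. The mean was 1.76-fold lower, from 2241 ± 79.6 to 1274 ± 235 (log2 fold change -0.83, SE 0.12, limma adjusted p = 0.00442). The antisense gene Gm35986 shares 34 exonic bases with Elovl6, and the strand setting of the counting is unknown here. Of the 50-base windows of the longest coding Elovl6 transcript, 4.4% also occur in another gene's transcript, mostly Gm11295.

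The other elongases of the list gave values close to equal. Elovl5, which extends polyunsaturated fatty acids between the Fads2 and Fads1 steps (chromosome 9, 77917364 to 77984519, plus strand), stood at 1662, 1620 and 1917 in Stat3C and at 1631, 1681 and 1704 in Stim1KO Stat3C. Its log2 fold change was -0.05 (SE 0.07, limma adjusted p = 0.696), with a 95% interval of -0.22 to 0.12. Elovl1, which makes the very long saturated chains used in ceramides (chromosome 4, 118428093 to 118432953, plus strand), stood at 2840, 2818 and 3054 in Stat3C and at 2955, 2729 and 2797 in Stim1KO Stat3C. Its log2 fold change was -0.04 (SE 0.06, limma adjusted p = 0.685), with a 95% interval of -0.17 to 0.09. These intervals leave out a change of the size seen for Elovl6. Both estimates turned slightly positive with replicates 1 and 2 of each group only (0.013 for Elovl5 and 0.0054 for Elovl1). Cdc20, a cell cycle gene on the opposite strand (4719 ± 347 and 3973 ± 70.3), shares 53 exonic bases with Elovl1.

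Acly was the member of the synthesis core that passed the test. ATP citrate lyase (chromosome 11, 100476353 to 100528000, minus strand) supplies the cytosolic acetyl-CoA used for fatty acids, sterols and histone acetylation. It stood at 15289, 14125 and 15207 in Stat3C and at 11861, 13202 and 12257 in Stim1KO Stat3C. The groups did not overlap, with the replicates 2 nearest each other. The mean fell by 16.4%, from 14874 ± 650 to 12440 ± 689 (log2 fold change -0.26, SE 0.06, limma adjusted p = 0.0257). The call was lost in 7 of 23 alternative settings, among them leaving out Stat3C replicate 1 (adjusted p = 0.109) or 3 (0.104) or Stim1KO Stat3C replicate 1 (0.0897) or 3 (0.0708).

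Acaca and Fasn, the committed and the final enzymes of palmitate synthesis, gave smaller differences that did not pass. Acaca, which encodes acetyl-CoA carboxylase 1 (chromosome 11, 84129672 to 84401651, plus strand), stood at 4413, 3802 and 4189 in Stat3C and at 3384, 3886 and 3593 in Stim1KO Stat3C. Stim1KO Stat3C replicate 2 exceeded Stat3C replicate 2, and the log2 fold change was -0.19 (SE 0.07, limma adjusted p = 0.129). Fasn (chromosome 11, 120805846 to 120824547, minus strand) stood at 23495, 20207 and 21889 in Stat3C and at 18493, 21005 and 18612 in Stim1KO Stat3C. The same pair of libraries overlapped, and the log2 fold change was -0.17 (SE 0.07, limma adjusted p = 0.152). Both genes passed without Stat3C replicate 2 (Acaca -0.25, adjusted p = 0.0258, and Fasn -0.23, adjusted p = 0.0364). For Acaca, 52.6% of the 50-base windows of its longest coding transcript also occur in Gm5182, so its reads may be split or lost between these copies, and its value is uncertain to that extent.

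The same libraries stood out in gene after gene. In Stim1KO Stat3C, replicate 2 was the highest of the 3 libraries for 8 of the 10 genes, and replicate 1 the lowest for 8 of them. Over all tested genes, replicate 2 was the highest of that group in 28.4% and replicate 1 the lowest in 35.2%. In Stat3C, replicate 2 was the lowest for 7 of the 10 genes (38.6% of all tested genes), the exceptions being Fads1, Fads2 and Elovl6. The spread within a group differed by gene: the coefficient of variation in Stat3C was 48.9% for Scd1 and 27.5% for Scd2, but 3.55% to 9.28% for the other 8. In Stim1KO Stat3C it was 46.3% for Scd1, 39.9% for Scd2, 24.9% for Fads2 and 18.4% for Elovl6, and 2.22% to 13.6% for the remaining 6. The genes with the most negative estimates were therefore also the ones that varied most within Stim1KO Stat3C.

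**Figure D3:**
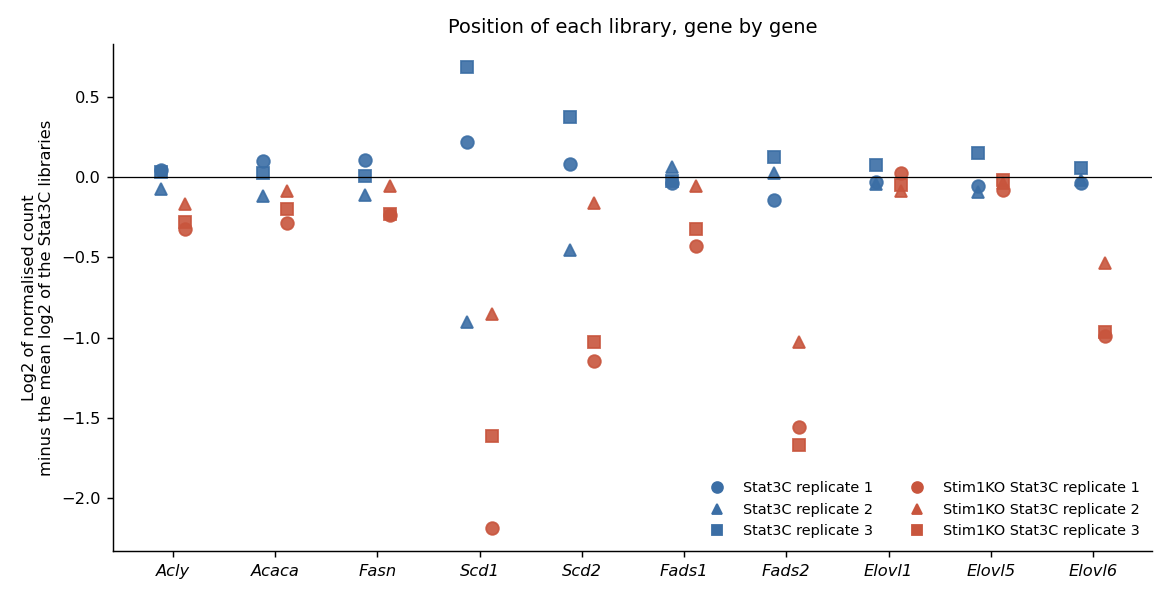
Log2 of the normalised count of each library minus the mean log2 of the 3 Stat3C libraries, for each gene, with blue for Stat3C, red for Stim1KO Stat3C and a symbol for each replicate. The red triangle, Stim1KO Stat3C replicate 2, is the highest red point in 8 of the 10 genes.

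Ratios between enzymes of the same library do not depend on the size factors. The ratio of Fads2 to Fads1 counts was 0.657, 0.6905 and 0.785 in Stat3C against 0.325, 0.363 and 0.280 in Stim1KO Stat3C, a log2 difference of -1.14 (SE 0.13). The ratio of Elovl6 to Elovl1 was 0.767, 0.786 and 0.763 in Stat3C against 0.381, 0.566 and 0.411 in Stim1KO Stat3C (-0.79, SE 0.18). Both ratios were lower in all 3 Stim1KO Stat3C libraries. The ratio of Scd2 to Scd1 moved the other way, from 20.8, 31.2 and 18.4 to 47.0, 36.9 and 34.2 (0.77, SE 0.27), with no overlap, although each of these genes overlapped on its own. In the exact two-sided permutation test each of these 3 ratios had p = 0.1, the smallest that 3 against 3 libraries allow, and an adjusted p = 0.2 over the 6 ratios. The ratios of Fasn to Acaca (5.29 ± 0.0545 and 5.35 ± 0.151, exact permutation p = 0.5), of Acly to Acaca (3.60 ± 0.128 and 3.44 ± 0.0588, p = 0.2) and of Elovl5 to Elovl1 (0.596 ± 0.0280 and 0.592 ± 0.0351, p = 0.9) overlapped between the groups. Fasn and Acaca thus kept nearly one ratio over all 6 libraries, 5.18 to 5.46.

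**Figure D4:**
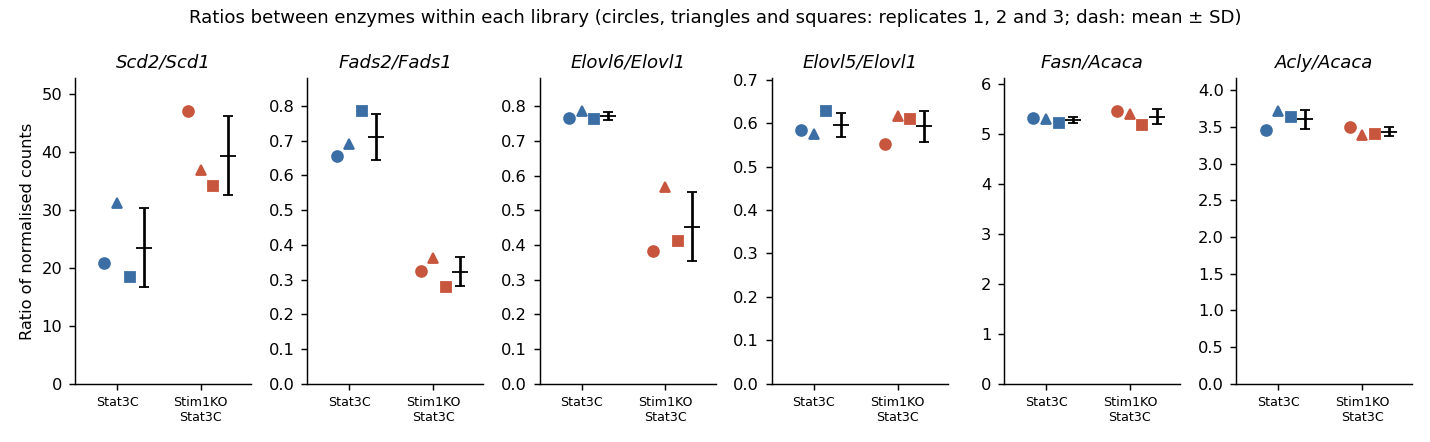
Ratio of the normalised counts of paired enzymes in each library (linear axes from 0), with blue for Stat3C, red for Stim1KO Stat3C and dashes with bars for the mean ± SD of 3 libraries. Fads2/Fads1 and Elovl6/Elovl1 are lower and Scd2/Scd1 higher in all 3 Stim1KO Stat3C libraries, and the other 3 ratios overlap.

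The sequence upstream of the start was compared between 2 genes that fell, Elovl6 and Acly, and 2 that did not pass, Fasn and Elovl5. RefSeq windows (GRCm38.p6) of 250 bases before the start were found for 7 of the 10 genes, and the part outside coding-gene exons is printed 5′ to 3′ in the sense of the gene, with NF-Y boxes (CCAAT) and Sp1 boxes (GGGCGG), on either strand, in capitals.
Elovl6, chr3:129532136-129532354, plus strand: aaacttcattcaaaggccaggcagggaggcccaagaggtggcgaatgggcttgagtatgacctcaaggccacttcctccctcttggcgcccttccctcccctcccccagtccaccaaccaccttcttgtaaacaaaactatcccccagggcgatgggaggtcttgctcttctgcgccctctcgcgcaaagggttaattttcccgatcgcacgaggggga
Acly, chr11:100528001-100528250, minus strand: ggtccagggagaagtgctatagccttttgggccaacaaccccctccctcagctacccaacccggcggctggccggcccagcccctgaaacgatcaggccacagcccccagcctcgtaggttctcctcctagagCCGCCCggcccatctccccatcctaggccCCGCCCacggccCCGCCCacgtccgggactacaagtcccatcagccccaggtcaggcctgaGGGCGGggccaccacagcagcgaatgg
Fasn, chr11:120824548-120824797, minus strand: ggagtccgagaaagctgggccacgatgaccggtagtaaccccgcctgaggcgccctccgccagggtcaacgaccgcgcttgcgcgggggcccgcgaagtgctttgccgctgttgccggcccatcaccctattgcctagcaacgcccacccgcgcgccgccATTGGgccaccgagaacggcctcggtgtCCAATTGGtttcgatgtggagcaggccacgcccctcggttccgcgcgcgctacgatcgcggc
Elovl5, chr9:77917115-77917363, plus strand: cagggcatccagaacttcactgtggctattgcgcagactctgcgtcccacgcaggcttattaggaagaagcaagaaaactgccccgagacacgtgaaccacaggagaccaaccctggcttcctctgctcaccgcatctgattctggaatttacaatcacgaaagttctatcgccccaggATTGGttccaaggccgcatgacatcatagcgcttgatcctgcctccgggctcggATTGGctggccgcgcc
NF-Y and Sp1 are known partners of SREBP at lipid gene promoters. The Acly window held 4 Sp1 boxes and no NF-Y box, those of Fasn and Elovl5 held 3 and 2 NF-Y boxes and no Sp1 box, and that of Elovl6 held neither. In Fasn, a pair of the NF-Y boxes overlap on opposite strands. Elovl1, which did not pass either, has 2 windows, which are not printed. The first held 5 Sp1 boxes and 1 NF-Y box, and the second held 2 Sp1 boxes. Sp1 boxes were thus not limited to genes that fell. In the counts below, Elovl1 has a motif if either window holds it. Among the 7 genes, 3 had an NF-Y box (Fasn, Elovl5 and Elovl1) and 3 a Sp1 box (Acly, Elovl1 and Fads2). Of the 32851 windows of that length, 33.8% and 32.7% had one. The SREBP element TCACNCCAC and the STAT element TTCNNNGAA, searched on both strands, were in none of the 7 (1.05% and 7.02% of all windows). With shares this low and 7 genes, their absence says little. Sites with other letters or outside the windows were not searched. The NFAT core TGGAAA was in 1, Acaca (18.6%), and the E-box CACGTG in 1, Elovl5 (6.02%). The Acaca window precedes an internal start and the Fads2 window lies within an annotated first exon, so neither is printed. Both are among the 7 counted, so those counts are not of upstream sequence alone.

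Among genes that feed fatty acid synthesis, the citrate carrier fell. Of 9 tested genes of acetyl-CoA, NADPH and malonyl-CoA supply, 1 fell, none rose and 8 did not pass, with 7 log2 fold changes below 0 and a median of -0.38. With all 6 libraries, 4.96% of all tested genes were called lower and 8.62% higher, for reading this list and those below. The gene that fell was Slc25a1, the carrier that brings citrate out of mitochondria for ATP citrate lyase. It stood at 2000, 2074 and 2157 in Stat3C and at 1402, 1652 and 1479 in Stim1KO Stat3C (log2 fold change -0.46, SE 0.07, limma adjusted p = 0.007). Acacb, the mitochondrial form of the carboxylase, was read at 33.8 to 47.5 counts in Stat3C and at 31.1 to 38.3 in Stim1KO Stat3C.

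The elongation cycle has 3 further steps beyond the ELOVL condensation, and 2 of the 3 tested dehydratases of the cycle fell. Among 7 tested genes of this list 2 fell and 0 rose (median -0.22). Hacd1 (listed as Ptpla), a 3-hydroxyacyl-CoA dehydratase, went from 258, 287 and 252 to 134, 119 and 113 (log2 fold change -1.11, SE 0.13, limma adjusted p = 0.00217). Hacd3 (listed as Ptplad1), of the same family, went from 2413, 2367 and 2425 to 1758, 1809 and 1787 (-0.43, SE 0.05, adjusted p = 0.00225). Hacd2 (listed as Ptplb) did not pass (-0.31, SE 0.11, adjusted p = 0.0935), and Hacd4 was too low to be tested. In Hacd1 and Hacd3 the 3 Stim1KO Stat3C libraries lay close together and well below the controls. Of 8 tested desaturation partners, the cytochrome b5 system and other desaturases, none passed the main limma test (median -0.04). The most abundant were Cyb5b, which carries electrons (7310 ± 461 and 6882 ± 278), and Degs1, the desaturase of ceramide synthesis (1899.9 ± 74.5 and 1783 ± 126). Without Stat3C replicate 2, Cyb5a (listed as Cyb5; 0.33, adjusted p = 0.00568) and Cyb5r3 (0.27, adjusted p = 0.0228) rose.

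None of the listed control genes of this pathway that were tested passed the main limma test. This held for all 19 tested regulators of the SREBP, LXR and ChREBP systems, whose median was 0.0011. Nr1h3, which encodes LXR alpha, and Mlxipl, which encodes ChREBP, were too low to be tested. Nr1h3 stood at 10.8, 8.56 and 14.5 in Stat3C and at 2.74, 4.30 and 2.99 in Stim1KO Stat3C. In the Stim1KO Stat3C libraries, 3 reads correspond to 2.99 to 4.11. Without Stat3C replicate 2, Insig1, which retains SREBP in the endoplasmic reticulum, fell (-0.40, adjusted p = 0.0054), as did Srebf2 (-0.19, adjusted p = 0.0409). Srebf1, which encodes the SREBP1 factors that drive fatty acid genes, stood at 4423, 4251 and 4804 in Stat3C and at 4211, 4961 and 4334 in Stim1KO Stat3C (log2 fold change 0.0011, SE 0.08, adjusted p = 0.995, 95% interval -0.18 to 0.18). The sign of that estimate changed in 9 of 23 alternative settings. Srebf2, its counterpart for cholesterol genes, stood at 10882 ± 690 and 9895 ± 537 with all libraries (-0.14, SE 0.06, adjusted p = 0.19). SREBP activity is set largely by cleavage of the protein, which these counts do not measure. Of 9 tested genes of AMPK, the kinase that inactivates acetyl-CoA carboxylase, and of its activators, none passed the main test, with a median of 0.04. Cab39 (5064 ± 196 and 5674 ± 119) and Prkag1 (2244 ± 87.8 and 2368 ± 49.7) were the most abundant of them. With weights for library quality in limma, 2 of the 19 regulators fell and 2 of the 9 AMPK genes rose. In that setting 15.1% of all tested genes were called lower and 18% higher. By DESeq2 and with quantile normalisation, 1 AMPK gene rose, against 10.4% and 8.1% of all tested genes called higher.

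Cholesterol synthesis and uptake genes, driven mainly by SREBP2, fell in part. Of 22 tested, 7 fell, none rose and 15 did not pass, with 20 log2 fold changes below 0 and a median of -0.31. Sqle fell from 2966 ± 226 to 2279 ± 105 (log2 fold change -0.38, limma adjusted p = 0.0128), Hmgcs1 from 4327 ± 603 to 3043 ± 252 and Idi1 from 5295 ± 784 to 3651 ± 365. Leaving out Stat3C replicate 2 raised this count to 18. Leaving out Stim1KO Stat3C replicate 2 or 3 gave 4 or 3, and leaving out any of the other 3 libraries gave 0. The share of all tested genes called lower moved with it. That share was 9.98% without Stat3C replicate 2, 1.79% or 3% without Stim1KO Stat3C replicate 2 or 3, and 1.17% to 1.66% without any other library. Of 9 tested genes of mitochondrial fatty acid synthesis 2 fell and none rose (median -0.20), namely Ndufab1, the acyl carrier protein, and Mecr, the enoyl reductase. Both calls were lost without Stat3C replicate 1 or 3, and 1 gene of this list passed without Stim1KO Stat3C replicate 1 or 2. Of 16 cell cycle genes, 2 fell (Mcm3 and Mcm6) and 0 rose (median -0.15, 15 values below 0), with 0 to 4 falling when 1 library was left out. Without Stat3C replicate 2, Mki67, another gene of this list, rose (0.40, limma adjusted p = 0.0104). The part of growth rate in the differences above was not tested.

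**Figure D5:**
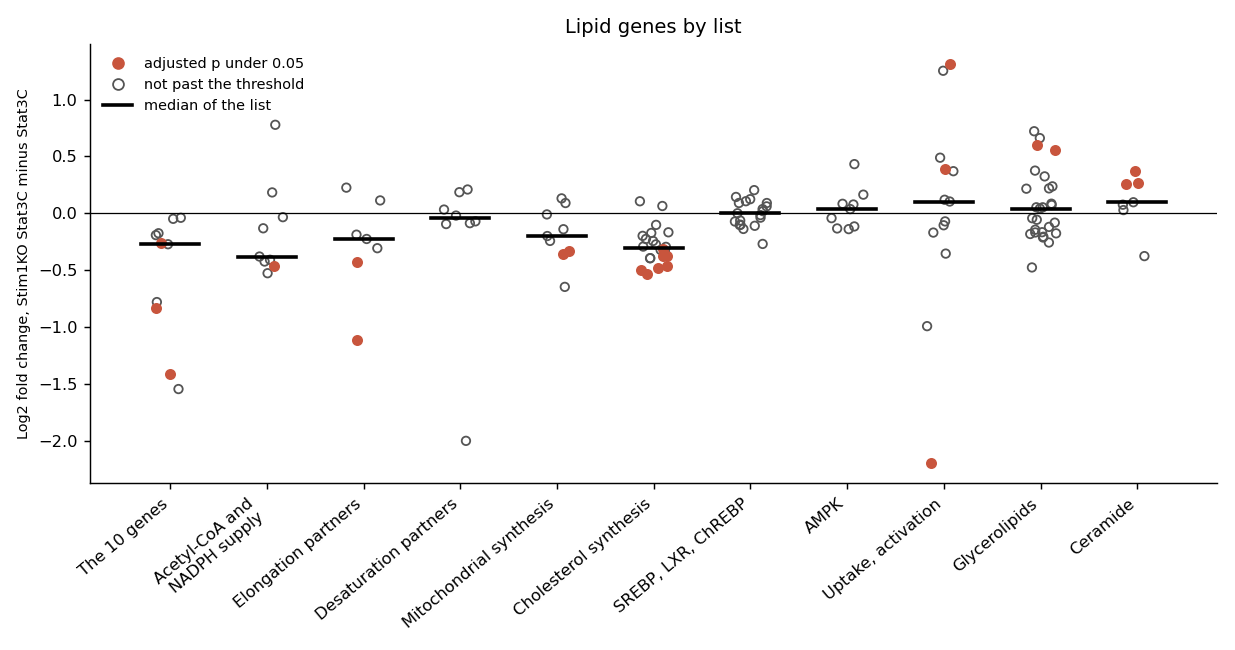
Log2 fold change of every tested gene of 11 lipid gene lists, with filled points past the adjusted p threshold, open points not past it and bars for each list's median. The lists of the 10 genes, supply, elongation partners, mitochondrial synthesis and cholesterol synthesis have medians of -0.38 to -0.20, the others of -0.04 to 0.10. The list of LXR targets, with a median of -0.12, is not shown.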

How the data were processed

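Per the labels' protocols, 100 ng of RNA per library entered a stranded mRNA kit. Per the submitters' processing notes, the tools were DESeq2 1.22.2, HTSeq 0.11.1 and TopHat2 2.1.1, with build mm10. Not given in the sources used here were the step of each, the gene models and the strand setting. The deposited table holds a normalised signal, taken to be read counts divided by a size factor, because 100% of values above 0 are whole multiples (within 0.01) of a step per library. For Stim1KO Stat3C replicate 3 that step, 0.995, lies too close to 1 for an automatic check. The 27 rows whose names had become dates were left out.

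The main test was limma 3.58.1 (R 4.3.3) with a variance trend on log2(value + 1), which understates changes of low genes, two-sided, all 6 libraries, Benjamini-Hochberg adjusted over 11947 genes whose mean reached 10. Fold changes are Stim1KO Stat3C minus Stat3C. Alternatives (23, of which 21 were planned) included edgeR 4.0.16, DESeq2 1.42.0 and voom on recovered reads. The fit was also run on simulated data, but the outcome is not reported here. edgeR called 1507 genes and 3 of the 10. After seeing the data, 2 alternatives were added: edgeR leaving out Stim1KO Stat3C replicate 3, and weights for library quality. The 10 genes and the gene lists were chosen with earlier results of these data known. All 10 are named; from each list, the up to 4 called genes of smallest adjusted p are named, or 2 of highest mean where none was called, except 1 that is not reported here. Acacb, Cdc20, Hacd2, Hacd4, Cyb5a, Cyb5r3, Insig1, Nr1h3, Mlxipl, Mki67 and the markers were named after their values were seen. Replicates were numbered in accession order. Positions are from GENCODE M21 (GRCm38), the genome of build mm10, and exon lengths are the union of all its transcripts.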

Additional observations from a re-analysis of the deposited data

How the results depend on the processing

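Stim1 kept its call in all 23 alternatives (-1.41 to -1.29), and Fads2 and Elovl6 in 22 each, losing it with replicates 1 and 2 of both groups only, where 0 of the 10 genes and 82 of all genes passed limma (2 libraries a group; the cause was not tested). The 10 genes gave 2 to 7 calls with 1 library left out, and 7 with library quality weights. With Xist as a covariate in limma, 3 of the 10 genes and 1738 of all genes were called. Over all genes 617 to 2899 passed with 1 library left out, 827 without a variance trend, 922 by edgeR without Stim1KO Stat3C replicate 3 and 3959 with quality weights. No setting made any of the 10 genes pass as higher. Reversed signs were found for Elovl1 (0.0054) and Elovl5 (0.013) with replicates 1 and 2 only, for Elovl5 without Stat3C replicate 3 (0.027, range -0.094 to 0.027 with 1 library left out), and for the Elovl5 to Elovl1 ratio (-0.038 to 0.041 with 1 library left out). With reads thinned to equal depth, 4 of the 10 genes were called lower in limma, with Scd1 added (adjusted p = 0.0421). The share of all tested genes called lower was 5.13% there. No paired analysis was possible because the sample numbers in the labels are not shared between the groups.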

Other observations

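Among genes that take up and activate fatty acids, the largest change was a fall, in Acsl6. Of 13 tested genes of uptake, binding and acyl-CoA formation, 2 rose and 1 fell, with a median of 0.10. Over all tested genes, 8.62% were called higher and 4.96% lower. In this list, 1 rose on leaving out Stim1KO Stat3C replicate 2, Stat3C replicate 1 or Stat3C replicate 3. In those settings 3.99% to 4.7% of all tested genes were called higher. Acsl6, a long-chain acyl-CoA synthetase, stood at 432, 317 and 679 in Stat3C and at 119, 83.8 and 94.5 in Stim1KO Stat3C, with no overlap (log2 fold change -2.20, SE 0.27, limma adjusted p = 0.0027). Acsbg1, another acyl-CoA synthetase, rose from 251, 404 and 286 to 815, 716 and 767 (1.31, SE 0.17, adjusted p = 0.0031). The transporter gene Slc27a4 rose as well (549 ± 26.1 to 719 ± 16.9).

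Of 27 tested genes of glycerolipid assembly and lipolysis, 2 rose and none fell, against 8.62% of all tested genes called higher, with a median of 0.04. Without Stat3C replicate 2, 6 rose and 2 fell, against 14.3% and 9.98% of all tested genes. Without Stat3C replicate 1, 1 rose, against 3.99%. Agpat3, an acyltransferase of phospholipid synthesis, rose from 3366, 3395 and 3294 to 5242, 5028 and 5004 (log2 fold change 0.60, SE 0.05, limma adjusted p = 0.000572), and kept its call in all 23 alternatives. Lipe, the hormone-sensitive lipase, rose from 313 ± 25.6 to 462 ± 25.6. Of 7 tested ceramide synthesis genes, Sptlc2, Cers4 and Sptlc1 rose and none fell (median 0.10), and 0 passed when any single library other than Stat3C replicate 2 was left out. In those settings 3.99% to 6.6% of all tested genes were called higher. Among 7 tested LXR targets of cholesterol efflux and uptake control, Abca1 fell from 256 ± 45.8 to 138 ± 16.5 and none rose, with a median of -0.12. That call was lost without Stat3C replicate 1 or 3 or Stim1KO Stat3C replicate 1.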
